A study of Mus musculus with 29 samples.

Results

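The 10 genes described here, of 12394 genes named by the array, are Csf1r, Spi1, Cd68, Lyz2, Mpeg1, the adhesion receptors Adgre1, Adgre4 and Adgre5, and the receptor chains Csf2ra and Csf2rb. They were taken as the genes to which a probe set is annotated alone, which gave 14 of the 22690 probe sets: 3 for Csf1r, 2 each for Adgre4 and Csf2ra, and 1 for each other gene. A further probe set, annotated to both Csf2rb and its near-identical copy Csf2rb2, was not used. RNA was measured on 29 Affymetrix 3′ arrays of macrophages grown from the marrow of C57BL/6 mice, wild type and 8 weeks old. Marrow cells were kept for 7 days in Teflon bags with CSF-1 (10 ng/ml) and then for 24 h in medium that held CSF-1 (10 ng/ml) and 10% serum in every group. Single additions were IL-4 (5 arrays), IL-6 (5 arrays) and IL-10 (3 arrays), each at 10 ng/ml. Pairs, with each cytokine at the same dose, were IL-4 plus IL-6 on 5 arrays, then IL-4 plus IL-10 on 3. The other 8 arrays had no addition (unstimulated). All cells were thus exposed to CSF-1, and no group lacked it. The labels do not say whether arrays of 1 group came from separate mice or cultures, so p-values measure the spread between these arrays, which may be technical.

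Macrophages depend on CSF-1, which binds the receptor tyrosine kinase encoded by Csf1r. Spi1 encodes PU.1, the ETS-family transcription factor required for the myeloid lineage, which binds purine-rich GAGGAA elements in myeloid promoters. Adgre1 encodes F4/80, the antigen most used to identify mouse macrophages. It belongs with Adgre4 (FIRE) and Adgre5 (CD97) to the EGF-module subfamily of adhesion G protein-coupled receptors (GPCRs), which carry EGF-like repeats on a long extracellular part. Csf2ra and Csf2rb encode the ligand-binding and the shared signalling chain of the GM-CSF receptor. IL-4 signals mainly through STAT6, while IL-6 and IL-10 signal mainly through STAT3.

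Values are the deposited log2 intensities, which ran from 2.45 to 15.13 with a median of 6.99. A difference of 1 on this scale is a 2-fold change in intensity, and levels of different probe sets were not compared with each other. Genes were tested with limma when at least 3 arrays exceeded 6.99, and 7154 genes passed. All 10 genes and all 14 of their probe sets did, Adgre4 only through the groups in which it was high. Calls are at an adjusted p under 0.05. In bulk RNA, fewer cells of a type and less RNA per cell cannot be told apart. Only the unstimulated group has replicates 6 to 8, and these were taken, from the replicate numbers and not from a label, as the matching controls of both groups that received IL-10, and replicates 1 to 5 as those of the other groups. In unstimulated replicates 6 to 8 against 1 to 5, 19.1% of all genes and 2 of the 10 (Csf2ra and Csf2rb, both lower) were called, and 6.82% of all genes were called lower. In the same comparison, 5 of the 6 tested B cell markers were lower, by a median of -0.87 over the 6. The difference between 3′ and 5′ Actb control probe sets was 0.44 ± 0.070 in unstimulated replicates 6 to 8 (SD, n = 3) and 0.32 ± 0.0089 in replicates 1 to 5 (SD, n = 5). This measure also differed between stimulations. Its mean was 0.32 with IL-4, 0.25 with IL-6, 0.34 with IL-10, 0.36 with IL-4 plus IL-6 and 0.42 with IL-4 plus IL-10. IL-6 arrays (0.22 to 0.26) lay below all other arrays. The part of these differences in the results was not tested. Values from the matching controls alone are given for some of the calls and counts that they change.

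The labelled cell type was checked on these genes, and 9 of the 10 exceeded 6.99 on all 29 arrays, Adgre4 on 16. None of the 8 T and NK cell markers or the 10 fibroblast and stromal markers on the array passed the filter for testing. Among neutrophil markers, 8 of 11 on the array were tested. Of the 10 dendritic cell markers on the array, 5 were under the filter on every array and 5 were tested. With IL-4, 2 of these were higher and 1 lower (27.6% and 31.9% of all genes). With IL-6 the counts were 2 and 2 (16.1% and 23.1%), and with IL-10 1 and 0 (18.3% and 19.5%). Each combination gave 3 and 1 (35.0% and 38.8% for IL-4 plus IL-6, 38.1% and 34.0% for IL-4 plus IL-10). Batf3, a factor of cross-presenting dendritic cells, averaged 10.68 with IL-4 and 7.98 in unstimulated cells. Cd209a, a lectin of dendritic cells, averaged 10.10 with IL-4 plus IL-6 and 5.62, below the median of all values, in unstimulated cells. Cd207, another of the 5, went the other way and was called lower with IL-4, IL-6 and both combinations. It averaged 6.07 with IL-4, below the median of all values, and 7.39 in unstimulated cells. Unstimulated replicates 6 to 8 averaged 8.14 for Cd207 and replicates 1 to 5 averaged 6.94. Over the 10 dendritic markers the mean level per array was 5.88 to 6.06 with IL-4, 5.71 to 5.79 with IL-6, 5.80 to 5.89 with IL-10, 6.21 to 6.43 with IL-4 plus IL-6, 6.07 to 6.22 with IL-4 plus IL-10 and 5.69 to 5.86 in unstimulated cells. IL-4 alone and both combinations thus had dendritic marker means above all unstimulated arrays.

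Of 6 tested B cell markers (9 on the array), IL-10 and IL-4 plus IL-10 each had 5 lower and none higher. Of all genes, 19.5% and 34.0% were lower in these groups. With the matching controls alone the marker counts were 2 lower with IL-10 (10.5% of all genes). For IL-4 plus IL-10 they were 3 lower (29.9%) and 1 higher (29.8%). The mean over the 9 was 6.98 to 7.01 with IL-10, 6.75 to 6.96 with IL-4 plus IL-10, 7.11 to 7.14 in unstimulated replicates 6 to 8 and 7.64 to 8.21 in replicates 1 to 5. IL-4 raised 2 B cell markers (27.6% of all genes), IL-6 lowered 1 (23.1%), and IL-4 plus IL-6 raised 1 (35.0%) and lowered 2 (38.8%). With the matching controls alone, IL-4 raised 1 (29.6%) and IL-6 lowered 2 (20.1%). Of 3 tested erythroid and megakaryocyte markers (8 on the array), 2 were higher with IL-6 (16.1% of all genes) and 3 with IL-10 (18.3%). Of the pairs, that with IL-6 had 1 higher (35.0% of all genes). That with IL-10 had 2 (38.1%), or 0 with the matching controls alone (29.8%). IL-4 had 1 lower (31.9% of all genes). The platelet factor gene Pf4 rose by 1.20 with IL-6 and 1.37 with IL-10. Mast cell, basophil and eosinophil markers (12 on the array, 3 tested) gave at most 1 call in each direction. The part of these cell types in the results was not tested.

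IL-4 and its combinations lowered most of the 10 genes, while IL-6 or IL-10 alone changed fewer. Against unstimulated macrophages, IL-4 changed 9 of the 10, where 59.5% of all tested genes were called: 3 were higher (27.6% of all genes) and 6 lower (31.9%). IL-6 changed 5 (39.3% of all genes), with 1 higher (16.1%) and 4 lower (23.1%). IL-10 changed 5 (37.8% of all genes), with 1 higher (18.3%) and 4 lower (19.5%). The pair of IL-4 and IL-6 changed 9 (73.8% of all genes), with 1 higher (35.0%) and 8 lower (38.8%). The pair of IL-4 and IL-10 changed 8 (72.1% of all genes), with 1 higher (38.1%) and 7 lower (34.0%). The median difference over the 10 genes was -0.42 with IL-4 plus IL-6 and -0.37 with IL-4 plus IL-10, beside -0.02 and 0.02 over all genes. With single cytokines it was -0.11 (IL-4), -0.03 (IL-6) and -0.10 (IL-10), beside -0.01, -0.03 and 6.47e-04 over all genes. These 5 comparisons share their unstimulated arrays.

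**Figure D1:**
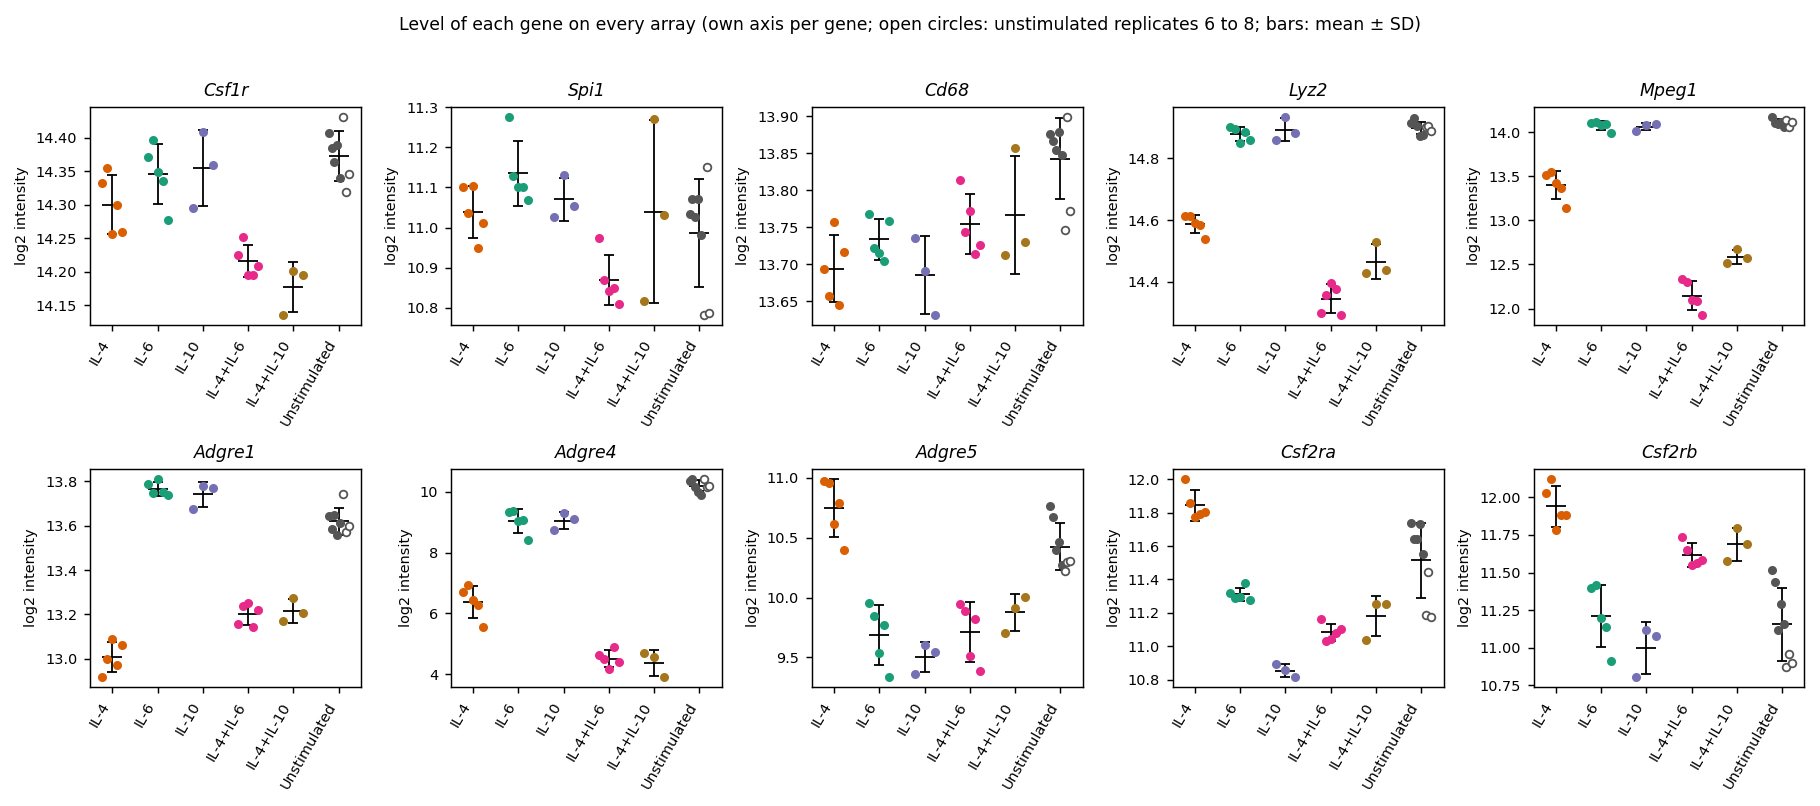
Log2 intensity (vertical axis, separate for each gene) of the 10 genes on each of the 29 arrays, by stimulation, with the group mean and SD as bars and unstimulated replicates 6 to 8 as open circles. Adgre4 and Mpeg1 are lowest in both combinations (Adgre4 below 6.99), while Csf1r, Spi1 and Cd68 stay within narrow ranges.

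The receptor for CSF-1 and the lineage factor moved little. Csf1r read 14.33, 14.35, 14.26, 14.30 and 14.26 with IL-4, 14.23, 14.25, 14.20, 14.20 and 14.21 with IL-4 plus IL-6, and 14.14, 14.20 and 14.20 with IL-4 plus IL-10. Unstimulated arrays lay between 14.32 and 14.43, with a median of 14.37. Both combinations lay wholly below the unstimulated arrays, and IL-4 alone overlapped them. Csf1r was lower by -0.16 ± 0.028 with IL-4 plus IL-6 (log2 difference ± SE, limma adjusted p = 1.38e-05) and by -0.20 ± 0.033 with IL-4 plus IL-10 (adjusted p = 8.45e-06), at most a 1.145-fold change in intensity on this probe set. The other probe sets of Csf1r read at lower levels and fell more in both combinations. Their differences were -0.24 and -0.22 with IL-4 plus IL-6 and -0.30 and -0.29 with IL-4 plus IL-10, all called. With IL-4 alone the difference was -0.07 ± 0.028 (adjusted p = 0.0280), and of the other probe sets 1 was called (-0.16, adjusted p = 0.0097) and 1 was not (-0.12, adjusted p = 0.159). Leaving out IL-4 replicate 3 ended that call (-0.06, adjusted p = 0.0854), as did leaving out IL-4 replicate 5 (-0.06, adjusted p = 0.0838) or unstimulated replicate 6 (-0.06, adjusted p = 0.0546). IL-6 (-0.03 ± 0.028) and IL-10 (-0.02 ± 0.033) did not pass the test, with 95% intervals of -0.08 to 0.03 and -0.09 to 0.05.

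Spi1 gave no call against unstimulated macrophages in any of the 5 stimulations. Its levels were 10.97, 10.87, 10.84, 10.85 and 10.81 with IL-4 plus IL-6, against 10.78 to 11.15 (median 11.03) on unstimulated arrays. The lowest unstimulated values were 10.78 and 10.79, in replicates 6 and 8, and the groups overlapped. The difference of IL-4 plus IL-6 was -0.12 ± 0.0625 (adjusted p = 0.0869), and it passed without unstimulated replicate 6 (-0.15, adjusted p = 0.0290) or 8 (-0.15, adjusted p = 0.0307). With the replicate number as a block, over replicates 1 to 5, it was -0.17 (adjusted p = 1.73e-04), and that of IL-6 was 0.10 (adjusted p = 0.0210) in place of 0.15 (adjusted p = 0.0618). IL-4 plus IL-6 lay below IL-6 alone without overlap (10.87 and 11.14 on average, difference -0.27 ± 0.069, adjusted p = 0.0013).

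Around these 2 genes stood a list of 15 tested genes of CSF-1 and beta common receptor signalling. With IL-4, 6 were higher and 5 lower (median 0.04), against the 27.6% and 31.9% of all genes called. With IL-6, 4 were higher and 1 lower (median 0.0026; 16.1% and 23.1% of all genes), and with IL-10, 7 and 4 (median 0.19; 18.3% and 19.5%). With the matching controls alone, IL-10 gave 2 higher and 1 lower (8.97% and 10.5% of all genes). IL-4 plus IL-6 gave 7 higher and 5 lower (median 0.25), where 35.0% and 38.8% of all genes were called. IL-4 plus IL-10 gave 9 higher and 4 lower (median 0.21), where 38.1% and 34.0% were. Cish, an inhibitor of cytokine receptor signalling, averaged 9.24 with IL-4 plus IL-6, 9.25 with IL-4 plus IL-10 and 6.09, below the median of all values, in unstimulated cells, and was called higher in both. The kinase gene Jak2 rose by 2.35 with IL-4 plus IL-6 and 1.90 with IL-4 plus IL-10. Csf3r, the G-CSF receptor, rose in both combinations too, by 1.66 and 1.31. Of 14 tested myeloid lineage transcription factors, 6 were higher and 7 lower with IL-4 (median -0.10), 3 and 5 with IL-6 (-0.02) and 5 and 4 with IL-10 (0.06). IL-4 plus IL-6 gave 6 higher and 6 lower (0.11), and IL-4 plus IL-10 gave 8 and 6 (0.29). The matching controls alone left 3 higher and 3 lower with IL-10. They gave 3 and 4 with IL-6, and 7 and 6 with IL-4 plus IL-6. Klf4, a factor of monocyte differentiation, rose by 2.31 with IL-4, 2.49 with IL-4 plus IL-6 and 2.36 with IL-4 plus IL-10, while Egr2 fell with IL-6 (-1.06) and IL-10 (-1.55).

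Among the effector genes, Mpeg1 and Lyz2 fell with IL-4 and fell further in both combinations, while IL-6 or IL-10 alone gave no call. Mpeg1 encodes perforin-2, a pore-forming protein of phagosomes. It read 13.52, 13.55, 13.43, 13.36 and 13.14 with IL-4, 12.33, 12.30, 12.10, 12.08 and 11.92 with IL-4 plus IL-6, and 12.52, 12.68 and 12.57 with IL-4 plus IL-10. With IL-6 it read 14.11, 14.11, 14.08, 14.09 and 13.99, with IL-10 14.02, 14.08 and 14.09, and on unstimulated arrays 14.06 to 14.17 (median 14.11). Every array with IL-4 lay below every array without it, and both combinations lay below IL-4 alone. Mpeg1 was 3.885-fold lower with IL-4 plus IL-6 (-1.96 ± 0.059, adjusted p = 1.87e-21), 2.86-fold lower with IL-4 plus IL-10 (-1.52 ± 0.070, adjusted p = 8.02e-17) and 1.63-fold lower with IL-4 (-0.71 ± 0.059, adjusted p = 4.64e-11). IL-6 and IL-10 alone gave -0.03 ± 0.059 and -0.04 ± 0.070 and did not pass the test, with 95% intervals of -0.15 to 0.09 and -0.19 to 0.10. IL-4 plus IL-10 was 0.44 ± 0.076 above IL-4 plus IL-6 (adjusted p = 5.20e-05). The 3 differences from unstimulated cells stayed called with the matching controls alone, where IL-4 plus IL-10 gave -1.51.

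Lyz2, encoding the macrophage lysozyme, showed the same steps among the groups with IL-4 over a smaller range, near the top of the scale. It read 14.61, 14.61, 14.59, 14.58 and 14.54 with IL-4, 14.30, 14.36, 14.40, 14.38 and 14.29 with IL-4 plus IL-6, and 14.43, 14.53 and 14.44 with IL-4 plus IL-10. IL-6 arrays read 14.85 to 14.90 and IL-10 arrays 14.86 to 14.93, against 14.87 to 14.93 (median 14.90) on unstimulated arrays. No array with IL-4 reached any array without it. The fall was 1.47-fold with IL-4 plus IL-6 (-0.55 ± 0.026, adjusted p = 3.54e-17), 1.35-fold with IL-4 plus IL-10 (-0.43 ± 0.0305, adjusted p = 8.11e-13) and 1.24-fold with IL-4 (-0.31 ± 0.026, adjusted p = 3.50e-11). The highest value on any array was 15.13, and whether the probe set approaches saturation was not tested. Neutrophils also make lysozyme. Of the 8 tested neutrophil markers, 6 were lower with IL-4 (31.9% of all genes), 7 with IL-4 plus IL-6 (38.8%) and 5 with IL-4 plus IL-10 (34.0%), the last 3 with the matching controls alone. With IL-6, 2 were higher (16.1% of all genes) and none lower, and with IL-10, 1 (18.3%) and none. With the matching controls alone, IL-10 gave 0 higher (8.97%) and 0 lower (10.5%). Over the 11 neutrophil markers on the array, the mean level per array was 7.85 to 8.11 with IL-4, 7.66 to 7.90 with IL-4 plus IL-6, 7.71 to 8.09 with IL-4 plus IL-10 and 8.06 to 8.43 in unstimulated cells, with 3 of the 11 under the filter on every array. Their part in the fall of Lyz2 was not tested.

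Cd68, a lysosomal glycoprotein used as a pan-macrophage stain, differed least of the 10 between groups. Its 6 group means spanned 0.16, and only 5.87% of all tested genes had a narrower span (10.9% for Csf1r). It read 13.69, 13.66, 13.76, 13.65 and 13.72 with IL-4 and 13.75 to 13.90 (median 13.86) on unstimulated arrays, which overlapped. The differences were -0.15 ± 0.032 with IL-4 (adjusted p = 2.43e-04), -0.11 ± 0.032 with IL-6 (0.0077), -0.16 ± 0.038 with IL-10 (0.0017), and -0.09 ± 0.032 with IL-4 plus IL-6 (0.0149), while IL-4 plus IL-10 (-0.08 ± 0.038, adjusted p = 0.0733) did not pass. Without IL-4 plus IL-10 replicate 2 that difference was -0.12 (adjusted p = 0.0120), and it also passed without unstimulated replicate 6 (-0.09, adjusted p = 0.0308) or 8 (-0.09, adjusted p = 0.0453). The IL-10 call was lost with the matching controls alone (-0.12, adjusted p = 0.248), and that of IL-4 plus IL-6 with quantile normalization (-0.04, adjusted p = 0.246) or median centring (-0.06, adjusted p = 0.0586).

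The 3 adhesion receptors gave 3 different patterns. Adgre4 was lower in every stimulation. On the probe set that represents it, IL-4 arrays read 6.69, 6.93, 6.45, 6.29 and 5.55. Adding IL-6 to IL-4 gave 4.62, 4.51, 4.17, 4.88 and 4.39, and adding IL-10 to it gave 4.68, 4.56 and 3.89. IL-6 arrays read 9.32, 9.38, 9.03, 9.06 and 8.41 and IL-10 arrays 8.75, 9.29 and 9.11, against 9.89 to 10.42 (median 10.19) on unstimulated arrays. The arrays with IL-4, those with IL-6 or IL-10 alone, and the unstimulated arrays fell into 3 ranges that did not overlap. Arrays with IL-4 alone also read above both combinations, but all of these values lie below 6.99. IL-6 lowered Adgre4 by 2.24-fold (log2 difference -1.16 ± 0.18, adjusted p = 8.87e-06) and IL-10 by 2.22-fold (-1.15 ± 0.22, adjusted p = 1.12e-04). Every array with IL-4 read below 6.99, and no detection calls were among the values used here. The 3 groups with IL-4 were called lower, but how far the level fell in them is not given. The second probe set was also called lower in all 5 stimulations, by -1.03 with IL-6 (adjusted p = 8.70e-04) and -1.53 with IL-10 (adjusted p = 7.80e-05). On that probe set some ranges overlapped. IL-6 arrays read up to 8.11 and unstimulated arrays from 8.00, and IL-4 arrays from 4.21 and IL-4 plus IL-10 arrays up to 4.51.

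Adgre1 (F4/80) fell with IL-4 and rose slightly with IL-6. It read 12.92, 13.00, 13.09, 12.97 and 13.06 with IL-4, 13.16, 13.24, 13.25, 13.14 and 13.22 with IL-4 plus IL-6, and 13.17, 13.27 and 13.21 with IL-4 plus IL-10, against 13.56 to 13.74 (median 13.60) in unstimulated cells. Every array with IL-4 lay below every array without it, and IL-4 alone lay below both combinations. The falls were 1.53-fold with IL-4 (-0.61 ± 0.034, adjusted p = 9.61e-15), 1.34-fold with IL-4 plus IL-6 (-0.42 ± 0.034, adjusted p = 1.27e-11) and 1.32-fold with IL-4 plus IL-10 (-0.40 ± 0.041, adjusted p = 1.24e-09). Each combination was higher than IL-4 alone, by 0.19 ± 0.038 (adjusted p = 7.94e-05) and 0.21 ± 0.044 (adjusted p = 2.61e-04). IL-6 arrays read 13.79, 13.75, 13.81, 13.75 and 13.74, a rise of 0.15 ± 0.034 (adjusted p = 0.0011), although the ranges met at 13.74. IL-10 arrays read 13.68, 13.78 and 13.77, a rise of 0.12 ± 0.041 (adjusted p = 0.0200) that did not pass with the matching controls alone (0.10, adjusted p = 0.313) or without IL-10 replicate 2 (0.10, adjusted p = 0.118) or 3 (0.11, adjusted p = 0.0873).

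Adgre5 (CD97), which binds CD55, fell with IL-6 and with IL-10 whether or not IL-4 was present. It read 9.95, 9.85, 9.53, 9.77 and 9.33 with IL-6, 9.37, 9.61 and 9.55 with IL-10, 9.95, 9.89, 9.51, 9.82 and 9.39 with IL-4 plus IL-6, and 9.71, 9.91 and 10.01 with IL-4 plus IL-10. Unstimulated arrays read 10.22 to 10.76 (median 10.35), above all of these. The differences were -0.74 ± 0.12 with IL-6 (adjusted p = 8.905e-06), -0.92 ± 0.14 with IL-10 (adjusted p = 4.88e-06), -0.71 ± 0.12 with IL-4 plus IL-6 (adjusted p = 3.67e-06) and -0.55 ± 0.14 with IL-4 plus IL-10 (adjusted p = 8.76e-04). IL-4 arrays read 10.98, 10.96, 10.62, 10.79 and 10.40 and overlapped the unstimulated ones, and the difference was 0.32 ± 0.12 (adjusted p = 0.0183). That call was lost with the matching controls alone (0.23, adjusted p = 0.147) and without IL-4 replicate 1 (0.27, adjusted p = 0.0670) or replicate 2 (0.27, adjusted p = 0.0639). IL-4 plus IL-6 and IL-6 alone differed by 0.02 ± 0.13 (95% interval -0.24 to 0.29). IL-4 plus IL-10 exceeded IL-10 by 0.37 ± 0.17 (adjusted p = 0.0570), and the same difference passed with the replicate number as a block (adjusted p = 5.89e-04).

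**Figure D2:**
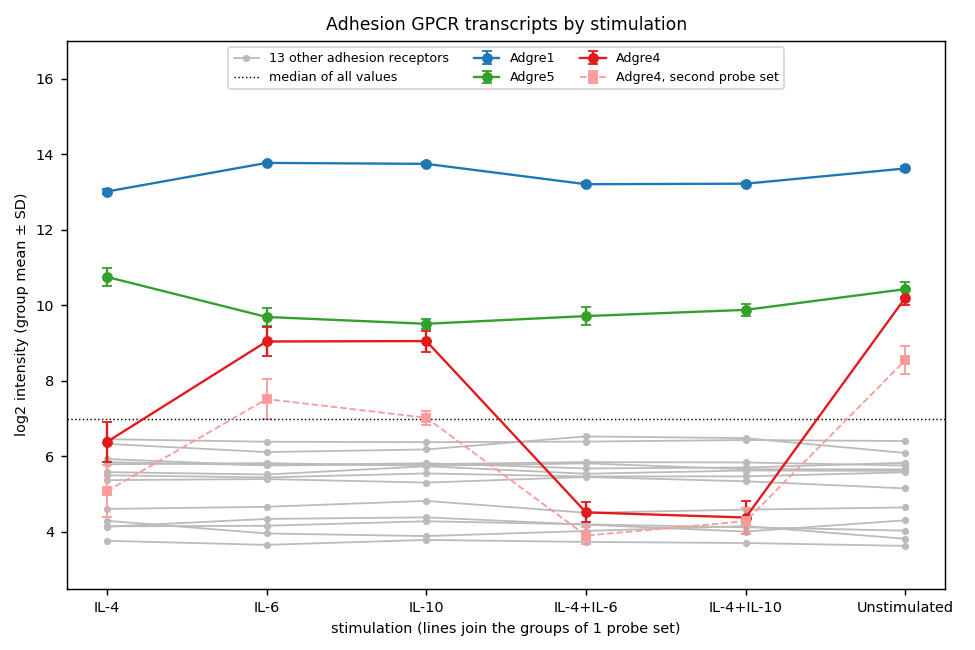
Group mean log2 intensity with SD (vertical axis) of Adgre1, Adgre4 (both probe sets) and Adgre5 and of the 13 other adhesion receptors on the array, by stimulation, with the median of all values as a dotted line. Adgre4 crosses the dotted line in the 3 groups with IL-4, and the 13 other receptors stay between 3.63 and 6.53 throughout.

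Of 27 other adhesion GPCRs, 13 are on the array and none had 3 arrays above 6.99, so none was tested. Their group means lay between 3.63 and 6.53. Of the 7 listed partners of CD97, Cd55 itself was not tested (group means 3.66 to 4.77), nor were Cd55b, Thy1 and Itgb3. The integrin gene Itgav fell by -0.58 with IL-4, -1.20 with IL-4 plus IL-6 and -0.92 with IL-4 plus IL-10, and Itgb1 was called higher in the same groups, by 0.24, 0.43 and 0.14. Itgb1 was also called higher with IL-6 alone (0.33, adjusted p = 8.34e-06), but not with IL-10 (0.09, adjusted p = 0.249). It differed between unstimulated replicates 6 to 8 and 1 to 5 as well (-0.24, adjusted p = 5.01e-04). With the matching controls alone its differences in the 3 groups with IL-4 were 0.15, 0.34 and 0.29. Those controls gave 1 of the 3 tested partners higher with IL-10. Itga5 was not called in any of the 5 stimulations.

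Adgre4, Mpeg1 and Lyz2 each had every array with IL-4 below every array without it. Their lowest levels were in both combinations, for Adgre4 below 6.99. Csf2ra rose with IL-4, and the promoters of all of these genes are shown. They were taken from RefSeq (GRCm38.p6), from 250 bases before to 50 after a start site, in the direction of the gene. That site was the outer start of the annotated gene, except for Csf2ra. The sequence table used held 5 of the 10 genes. Capitals mark each GAGGAA element on either strand (read as TTCCTC on the minus strand). The Adgre4 sequence is chr17:55749734-55750033 (plus strand), that of Mpeg1 chr19:12460520-12460819 (plus strand), that of Lyz2 chr10:117282223-117282522 (minus strand) and that of Csf2ra chr19:61228369-61228668 (minus strand).
Adgre4: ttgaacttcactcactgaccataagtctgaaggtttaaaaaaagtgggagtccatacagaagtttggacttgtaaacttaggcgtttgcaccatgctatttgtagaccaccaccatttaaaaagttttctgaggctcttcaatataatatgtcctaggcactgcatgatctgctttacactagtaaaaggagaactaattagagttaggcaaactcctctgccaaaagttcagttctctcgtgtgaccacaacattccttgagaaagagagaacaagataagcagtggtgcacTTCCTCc
Mpeg1: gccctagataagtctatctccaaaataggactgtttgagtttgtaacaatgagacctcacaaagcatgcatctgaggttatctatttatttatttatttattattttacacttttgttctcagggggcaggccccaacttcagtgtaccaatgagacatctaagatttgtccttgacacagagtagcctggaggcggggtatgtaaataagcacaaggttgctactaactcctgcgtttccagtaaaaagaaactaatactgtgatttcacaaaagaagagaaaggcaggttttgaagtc
Lyz2: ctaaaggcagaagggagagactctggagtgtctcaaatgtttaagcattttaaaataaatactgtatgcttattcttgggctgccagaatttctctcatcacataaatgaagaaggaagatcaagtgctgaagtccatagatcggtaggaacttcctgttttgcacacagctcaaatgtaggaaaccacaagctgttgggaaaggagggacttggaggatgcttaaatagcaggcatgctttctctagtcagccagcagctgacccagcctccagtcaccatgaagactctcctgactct
Csf2ra: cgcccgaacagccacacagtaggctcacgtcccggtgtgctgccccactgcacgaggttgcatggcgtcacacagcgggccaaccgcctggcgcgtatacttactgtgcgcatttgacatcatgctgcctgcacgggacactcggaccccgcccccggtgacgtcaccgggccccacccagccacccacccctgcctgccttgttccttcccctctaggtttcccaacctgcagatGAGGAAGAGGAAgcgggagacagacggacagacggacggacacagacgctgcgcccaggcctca
The search covered, on both strands, GAGGAA and the STAT-type repeats TTC and GAA, set apart by any 4 bases (the STAT6 spacing) or any 3 bases (the STAT3 and STAT5 spacing). GAGGAA occurs in 28.3% of the 32817 promoters of this length, the repeat with 4 bases between in 6.9% and that with 3 in 8.3%. Adgre4 holds 1 GAGGAA, at 44 to 49 from the start on the minus strand. Csf2ra holds 2 in tandem, at -14 to -9 and -8 to -3 from the start site of its window. The annotated gene spans chr19:61217191-61228461 (minus strand), so that site and both elements lie inside it. Cd68, whose level changed least, also holds 2. Mpeg1 and Lyz2 hold none, and neither STAT-type spacing is found in any of the 5 windows. A match is a run of letters and not a shown binding site.

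Both chains of the GM-CSF receptor were called higher with IL-4. The ligand-binding chain Csf2ra read 12.00, 11.86, 11.77, 11.79 and 11.80 with IL-4, against 11.18 to 11.74 (median 11.60) in unstimulated cells, without overlap, and rose by 0.33 ± 0.075 (adjusted p = 4.41e-04), or by 0.18 (adjusted p = 0.0012) against unstimulated replicates 1 to 5 alone. It read 11.16, 11.03, 11.04, 11.08 and 11.10 with IL-4 plus IL-6 and fell, by -0.43 ± 0.075 (adjusted p = 1.04e-05), or by -0.58 against replicates 1 to 5 alone. The second probe set gave the same directions, 0.25 with IL-4 and -0.56 with IL-4 plus IL-6. IL-6 alone gave -0.20 ± 0.075 (adjusted p = 0.0331), a call lost in 8 of the leave-one-out fits. Against replicates 1 to 5 alone that difference was -0.35 (adjusted p = 2.12e-06), and on the second probe set it was -0.23 (adjusted p = 6.81e-04).

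The unstimulated level of Csf2ra differed between the replicates: 11.19, 11.44 and 11.18 in replicates 6 to 8, against 11.74, 11.64, 11.64, 11.73 and 11.55 in replicates 1 to 5 (-0.39 ± 0.061, adjusted p = 5.64e-05). IL-10 arrays read 10.89, 10.86 and 10.81, lower by -0.66 ± 0.089 against all unstimulated arrays (adjusted p = 1.01e-06) and by -0.41 against replicates 6 to 8 alone (adjusted p = 0.0060). IL-4 plus IL-10 arrays read 11.04, 11.25 and 11.25, lower by -0.33 ± 0.089 (adjusted p = 0.0017), but by -0.09 (adjusted p = 0.397) against replicates 6 to 8 alone.

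Csf2rb, the signalling chain shared by the receptors for GM-CSF, IL-3 and IL-5, rose in all 3 groups with IL-4. It read 12.03, 12.12, 11.78, 11.88 and 11.88 with IL-4, 11.74, 11.65, 11.55, 11.56 and 11.58 with IL-4 plus IL-6, and 11.58, 11.79 and 11.69 with IL-4 plus IL-10, above all unstimulated arrays (10.87 to 11.52, median 11.14). The rises were 0.78 ± 0.098 with IL-4 (1.72-fold, adjusted p = 9.63e-08), 0.46 ± 0.098 with IL-4 plus IL-6 (adjusted p = 1.34e-04) and 0.53 ± 0.12 with IL-4 plus IL-10 (adjusted p = 2.10e-04). Against replicates 6 to 8 alone, IL-4 plus IL-10 gave 0.77. Against replicates 1 to 5 alone, the rises were smaller, 0.64 with IL-4 and 0.31 with IL-4 plus IL-6. The order of IL-4 and IL-4 plus IL-10 thus depends on the controls used. Unstimulated replicates 6 to 8 lay below 1 to 5 here too (-0.39 ± 0.10, adjusted p = 0.0076). IL-6 (0.06 ± 0.098) and IL-10 (-0.16 ± 0.12) did not pass, and the IL-10 difference was 0.09 against replicates 6 to 8 alone. Csf2rb2, the mouse copy that serves IL-3 alone, averaged 12.32 with IL-4, 12.25 with IL-4 plus IL-6, 12.21 with IL-4 plus IL-10 and 12.00 in unstimulated cells, and was called higher by 0.32, 0.25 and 0.21. In unstimulated replicates 6 to 8 it was -0.32 below replicates 1 to 5, and with the matching controls alone the differences were 0.20, 0.13 (adjusted p = 0.0727) and 0.41. With IL-10 it was -0.39, or -0.19 (adjusted p = 0.191) with the matching controls alone. The copies are near-identical, and how far the Csf2rb and Csf2rb2 probe sets read each other was not tested. The ligand Csf2 stayed between 4.15 and 4.38 in group means and was not tested.

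**Figure D3:**
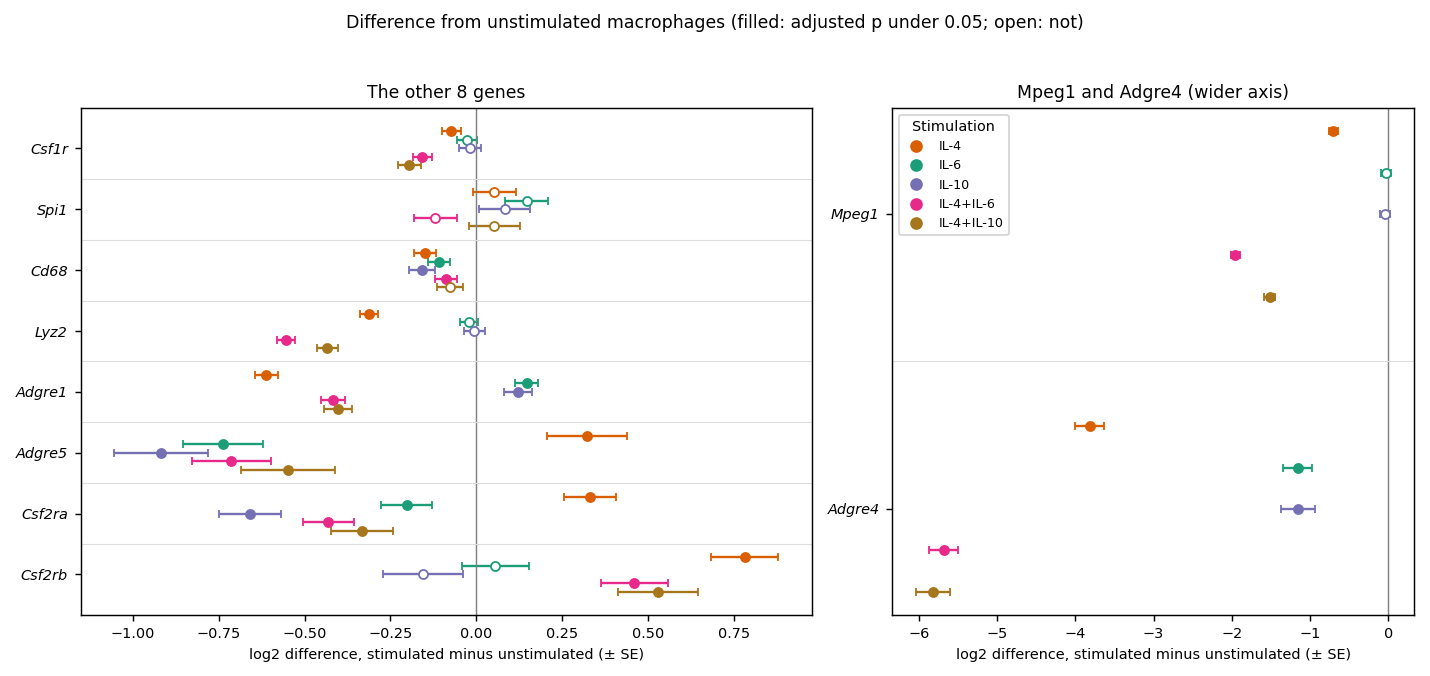
Log2 difference from unstimulated macrophages with its SE (horizontal axis) for the 10 genes (rows) and 5 stimulations (colours), filled where the adjusted p was under 0.05. Mpeg1 and Adgre4 have a wider axis, the Adgre4 points with IL-4 rest on levels below the median of all values (6.99), and only Csf2ra, Csf2rb and Adgre5 lie to the right with IL-4 among filled points.

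Whether the effects of IL-4 and the second cytokine add was tested as an interaction, the combination minus both single effects, on the log2 scale. IL-4 with IL-6 gave 7 interactions among the 10, where 39.9% of all genes were called: 1 above 0 (21.4% of all genes) and 6 below (18.6%). IL-4 with IL-10 gave 3, where 25.6% of all genes were called: 1 above 0 (15.5%) and 2 below (10.1%). IL-4 alone and the groups with IL-10 were matched with different unstimulated replicates. The interaction with IL-10 thus spans both sets of arrays, and a difference between the sets can enter it, unlike that with IL-6 on matching controls. With IL-6 the largest was that of Mpeg1 among the 10: the single effects of IL-4 and IL-6 sum to -0.73 and the combination gave -1.96, an interaction of -1.22 ± 0.088 (adjusted p = 7.51e-12). With IL-10 the sum was -0.75, the combination -1.52 and the interaction -0.77 ± 0.10 (adjusted p = 2.74e-06). Lyz2 also fell further than the sum with IL-6 (-0.22 ± 0.038, adjusted p = 3.64e-05), and with IL-10 the interaction was -0.12 ± 0.045 (adjusted p = 0.0584). For Csf2ra the single effects of IL-4 and IL-6 sum to 0.13 and the combination gave -0.43, an interaction of -0.56 ± 0.11 (adjusted p = 2.16e-04). With the matching controls alone the sum was -0.17, the combination -0.58 and the interaction -0.41 (adjusted p = 2.07e-05). Its second probe set gave an interaction of -0.57. Spi1 gave -0.32 ± 0.093 with IL-6 (adjusted p = 0.0074). Cd68 was the only one of the 10 with a positive called interaction, 0.17 ± 0.048 with IL-6 (adjusted p = 0.0057) and 0.23 ± 0.056 with IL-10 (adjusted p = 0.0033).

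Both interactions of Adgre4 are counted among these calls (adjusted p = 0.0408 with IL-6 and 0.0496 with IL-10), but they rest on levels below 6.99 in every group with IL-4, and their size is not read. Neither passed on its second probe set (adjusted p = 0.784 and 0.196). Csf2rb (-0.38 ± 0.15 with IL-6, adjusted p = 0.0401) lost its call with the matching controls alone (-0.23, adjusted p = 0.163), and the calls of Csf2rb and Adgre4 were lost in many of the fits that left out 1 array. For Adgre1 no interaction passed the test, with 0.05 ± 0.051 for IL-6 (95% interval -0.06 to 0.15) and 0.09 ± 0.060 for IL-10 (-0.04 to 0.21). For Adgre5 the interaction with IL-6 was -0.30 ± 0.17 (adjusted p = 0.178), and -0.21 (adjusted p = 0.0015) with the replicate number as a block.

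**Figure D4:**
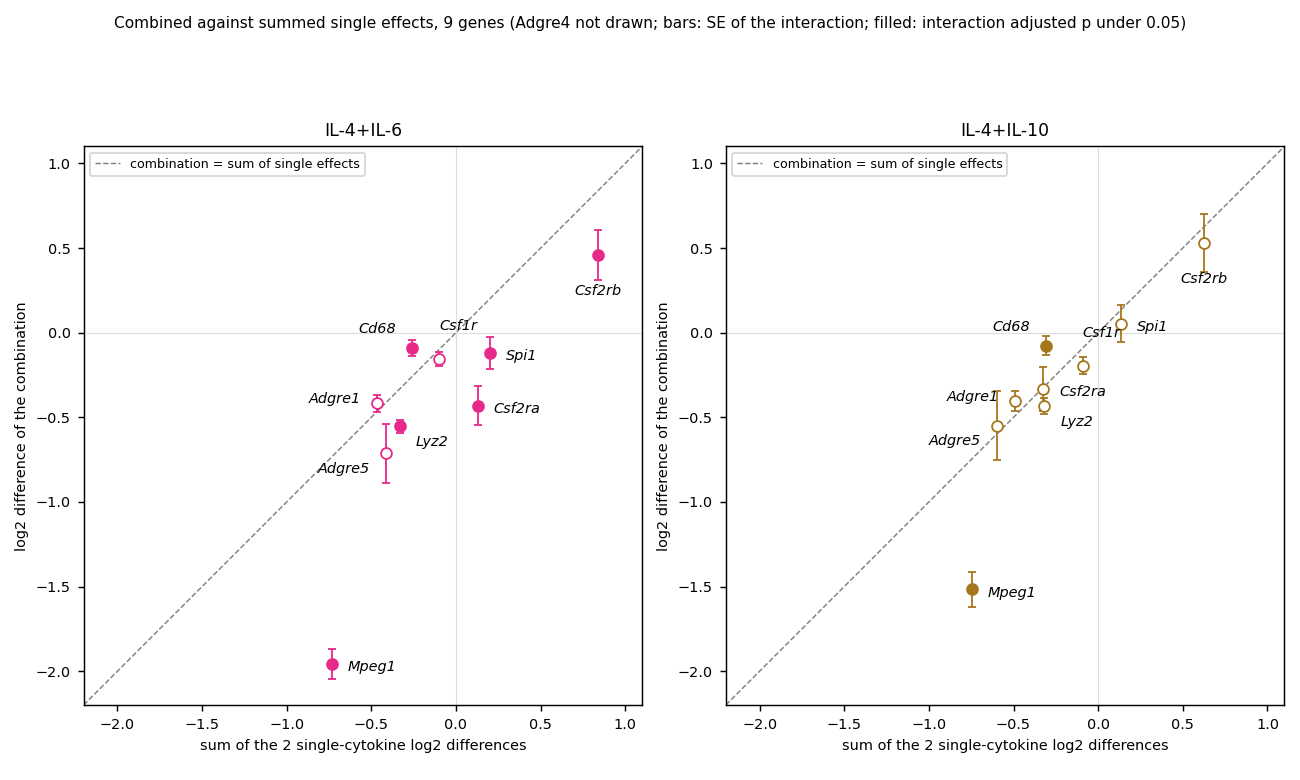
Log2 difference of the combination from unstimulated (vertical axis, with the SE of the interaction) against the sum of the 2 single-cytokine differences (horizontal axis) for 9 genes, filled where the interaction was called. Among the 9 drawn (Adgre4 is not drawn), Mpeg1 lies furthest below the dashed line of equal values in both panels, and Cd68 lies above it.

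IL-10 against IL-6 called 1 of the 10, where 11.9% of all genes were called (6.26% higher and 5.62% lower): Csf2ra, with 10.86 for IL-10 and 11.31 for IL-6 (-0.46 ± 0.096, adjusted p = 0.0069). A term for the 2 sets of arrays gave -0.07 (adjusted p = 0.9995) and left no call among the 10. Adgre4 differed by 0.01 ± 0.23 between IL-10 and IL-6, with a 95% interval of -0.47 to 0.49. Between the combinations, IL-4 plus IL-10 was above IL-4 plus IL-6 for 2 of the 10, Mpeg1 and Lyz2 (0.12 ± 0.033, adjusted p = 0.0044), where 42.8% of all genes were called (26.9% higher). The Lyz2 call was lost without IL-4 plus IL-10 replicate 2 (0.09, adjusted p = 0.0575) and with the set term (adjusted p = 0.0756), while Csf2ra (0.49, adjusted p = 1.98e-04) and Csf2rb (0.46, adjusted p = 0.0269) then passed. Relative to IL-4, IL-4 plus IL-6 changed 9 (60.5% of all genes), with 1 higher (29.4%) and 8 lower (31.2%). Relative to IL-6 it changed 8 (66.9%), with 1 higher (34.0%) and 7 lower (32.9%). IL-4 plus IL-10 changed 7 relative to IL-4 (57.3%), with 1 higher (32.7%) and 6 lower (24.6%), and 7 relative to IL-10 (59.9%), with 2 higher (31.8%) and 5 lower (28.1%). Its comparison with IL-4 spans the 2 sets of arrays, so a difference between the sets can enter these counts. Adgre1 was the gene that rose in each combination relative to IL-4.

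With each gene's 6 group means put in order, 19 of the 50 neighbouring pairs were told apart by the test. The share of such pairs told apart over all tested genes is not given here. Whether 19 of 50 is more or less than other genes would give therefore cannot be read from this count. Spi1 and Cd68 had no neighbours that were told apart. Csf1r and Csf2rb had 1 such pair, Adgre5 had 2, and Adgre1, Adgre4, Lyz2, Mpeg1 and Csf2ra had 3. The step of Adgre4 from IL-4 to IL-4 plus IL-6 lies between levels below 6.99. Mpeg1 and Lyz2 shared 3 steps: IL-4 stood below the arrays without IL-4, IL-4 plus IL-10 below IL-4, and IL-4 plus IL-6 below IL-4 plus IL-10.

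Over the 29 arrays, which share the group structure, Lyz2 and Mpeg1 correlated at r = 0.97, Adgre4 and Lyz2 at 0.97, Adgre4 and Mpeg1 at 0.95 and Adgre5 and Csf2ra at 0.87, while Adgre1 and Csf2rb correlated at -0.86. The genes with the most similar course were, by Pearson's r, Slc40a1 (0.993), the iron exporter ferroportin, for Adgre4, Camk1d (0.992) for Mpeg1, Clec4d (0.988), a C-type lectin receptor, for Lyz2, and C3ar1 (0.981), the receptor for complement C3a, for Adgre1. For Adgre5 it was Sult1a1 (0.955), for Csf1r Ctdsp2 (0.958), for Csf2ra AU020206 (0.953) and for Csf2rb Crat (0.942). Spi1 (Ppp4c, 0.908) and Cd68 (Eno2, 0.824) had the weakest best matches. These correlations are descriptions of 29 arrays in 6 groups. Those of Adgre4 include its levels below 6.99 in the groups with IL-4.

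A wider list of 21 tested macrophage markers moved as follows. With IL-4, 3 were higher (27.6% of all genes) and 17 lower (31.9%), with a median difference of -0.34. With IL-6, 12 were higher (16.1%) and 4 lower (23.1%), with a median of 0.17. With IL-10, 12 were higher (18.3%) and 7 lower (19.5%), with a median of 0.18. The matching controls alone left 9 and 4 (8.97% and 10.5%). IL-4 plus IL-6 gave 5 higher (35.0%) and 14 lower (38.8%), with a median of -0.38, and IL-4 plus IL-10 gave 3 higher (38.1%) and 14 lower (34.0%), with a median of -0.31. Cx3cr1, the fractalkine receptor, averaged 6.14 with IL-4, below the median of all values, against 8.85 in unstimulated cells. It was called lower in all 5 stimulations, also with IL-6 (7.69) and IL-10 (7.53) alone. Fcgr1, the high-affinity IgG receptor, fell by -2.26 with IL-4 and rose by 1.44 with IL-6 and 1.33 with IL-10. Cd14, the lipopolysaccharide co-receptor, fell by -1.78 with IL-4, -2.58 with IL-4 plus IL-6 and -2.55 with IL-4 plus IL-10. Mrc1, the mannose receptor, rose by 1.69 with IL-6, 1.54 with IL-10 and 2.51 with IL-4 plus IL-6.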

How the data were processed

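RNA of 29 samples was measured on 1-colour Affymetrix arrays. The deposited values are log2 intensities, 1 per probe set and sample. GCOS 1.4 and RMA are named, per the submitters' processing notes, without a role, and whether all arrays were processed together is not given in the sources used here. The values ran from 2.45 to 15.13 with array medians of 6.95 to 7.03, so no further normalization was applied. Array correlations were 0.973 to 0.998, and the number of arrays per group limits the precision. Of 22690 probe sets, 20393 had 1 gene symbol, 691 several and 1606 none. A gene was represented by its probe set with the highest mean. Genes with at least 3 arrays above 6.99 were tested in 1 limma fit by group over all 29 arrays (limma 3.58.1, R 4.3.3), with moderated variances and Benjamini-Hochberg adjustment over 7154 genes within each comparison. The fit was tested on simulated data.

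Arrays with the same replicate number deviated together: every same-numbered pair correlated above 0.1 in its deviations from the group means (0.415 to 0.6996 among replicates 1 to 5 of 4 groups, 0.596 to 0.776 for IL-10 with its pair). This pairing comes from the values and shared numbers, since no label states it. The fit without a block is the one reported, and the blocked value is given where it changed a call.

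The 10 genes and all lists were chosen with earlier results of these data known. All 10 are named in the comparisons, with up to 3 called genes with the largest difference per list and comparison, and the genes most correlated with each of the 10. Csf2rb2, Csf3r, Csf2, Cd55 and the untested partners of CD97 were named outside this rule, after their values were seen. Alternatives covered normalization, centring, the filter, the choice of probe set, the variance model, array weights, the arrays fitted, the 2 sets of arrays, the replicate block and leaving out each array. The values and list counts with matching controls alone for the other genes, the lists and each probe set were added after seeing the data.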

Additional observations from a re-analysis of the deposited data

Results flagged for a closer look

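Mpeg1 on IL-6 replicate 5 read 13.99, apart from the other 4 IL-6 arrays at 14.08 to 14.11. Its gap to the nearest array was 0.772 of the group's whole range, above Dixon's critical value of 0.71 for 5 samples. It was the only one of 40 group values tested that passed this limit, and chance passes about 1 in 20.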

How the results depend on the processing

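Each difference of each gene was recomputed under every alternative, which gave 5526 values. Of these, 5358 kept their direction and their side of the threshold, 115 lost a call, 52 gained one and 1 reversed. A change of sign counted as a reversal only where a call was involved, and another 85 values without a call changed sign. The reversal was the interaction of IL-4 with IL-10 for Adgre4 on its second probe set (0.73, adjusted p = 0.196). The number of the 10 genes called moved by more than 1.5 times in these cases: 4 in place of 2 between the unstimulated replicates with array weights, 1 in place of 2 between the combinations when only those groups were fitted, 0 in place of 1 for IL-10 against IL-6 with a term for the set, and 3 in place of 5 for IL-10 against unstimulated within 1 set. Within that set, 8.97% of all genes were called higher and 10.5% lower with IL-10, in place of 18.3% and 19.5%. Leaving out 1 array gave 1 to 3 calls between the combinations (1 without IL-4 plus IL-10 replicate 2), 8 to 9 for IL-4, 4 to 6 for IL-6, 4 to 5 for IL-10, 9 to 10 for IL-4 plus IL-6, and for IL-4 plus IL-10, 8 to 9 against unstimulated, and 17 to 21 neighbouring levels told apart in place of 19. The interactions with IL-6 and IL-10 gave 5 to 7 and 2 to 4 calls. The cause of these changes was not tested. With the replicate block, IL-6 against unstimulated called 6 of the 10, IL-4 plus IL-6 against unstimulated called 10, and the interaction with IL-6 8. Against IL-10 alone, its pair with IL-4 then gave 8 calls in place of 7. The shares of all genes called with the block are not given here, so these counts cannot be set against them. The block spans only comparisons within 1 set and was not run for the others. Adgre4 with IL-4 lies near the low end of the scale, where signal over background limits its differences, and Lyz2 and Csf1r lie near the top.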
